A study of Mus musculus with 6 samples.

Results

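The genes described are the G protein alpha subunits that turn adenylyl cyclase on (Gnas, Gnal) and off (Gnai1, Gnai2, Gnai3), the arrestins Arrb1 and Arrb2, the receptor partner Ramp1 and the cyclic AMP-gated exchange factors Rapgef3 and Rapgef4. They were chosen by gene symbol, and all 10 were found among the 54385 genes of the deposited count table. RNA with a poly(A) tail was sequenced in 6 libraries of interscapular brown fat from C57BL/6N mice kept on chow for 20 weeks and at 5 °C for 24 hours. The 3 knockout libraries (Adcy3-FL/FL/Adipoq-wt/cre) come from mice with floxed Adcy3 on both chromosomes and 1 Adipoq-Cre allele, which deletes floxed sequence in adipocytes and leaves the gene intact in the other cells of the depot. The 3 control libraries (Adcy3-FL/FL/Adipoq-wt/wt) come from mice with the same floxed alleles and no Cre, so both genotypes share the floxed background, the diet and the cold. Adcy3 encodes adenylyl cyclase 3, which makes cyclic AMP. The series design text names another fat depot, gives more replicates and does not mention cold; the sample labels were followed. No source used here says whether the libraries of a group came from separate animals, so p-values measure only the spread between these samples, which may be technical. Values of single libraries are given throughout in the order of libraries 1 to 3.

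In brown fat, noradrenaline released in the cold binds beta-adrenergic receptors, which hand the signal to a G protein whose alpha subunit then stimulates adenylyl cyclase. Alpha subunits of the inhibitory family oppose this, and arrestins bind active receptors, uncouple them from G proteins and take them into the cell. The cyclic AMP that results acts through protein kinase A and through the Epac proteins, exchange factors that load the small GTPase Rap with GTP. Every gene described here therefore stands on one side or the other of the enzyme that was deleted.

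Library totals ran from 13956786 to 17538044 estimated counts, so that 3 counts equal 0.171 to 0.215 counts per 1000000 (CPM) in a library. Adcy3 itself was at 21.9, 30.3 and 24.1 CPM in knockout libraries 1 to 3, against 135, 169 and 158 CPM in control libraries 1 to 3, and it was lower in every knockout library. The 10 brown adipocyte markers listed, Ucp1 and Adipoq among them, were all present and made up 1.58 to 1.76% of counts in knockouts and 1.41 to 1.53% in controls. Skeletal muscle RNA differed widely between the libraries. The 20 muscle markers made up 0.919%, 0.0675% and 0.00611% of counts in knockout libraries 1 to 3, against 2.22%, 1.99% and 1.67% in control libraries 1 to 3. All 20 had a negative log2 fold change, with a median of -2.35, and none was at 0 in any knockout library. Knockout library 1 also stood apart by transcript length. Among genes averaging at least 5 CPM, its log2 difference from the mean of the other 5 libraries had a median of 0.42 for transcripts of at most 2248 bases and of -0.32 for transcripts of at least 4985 bases, while the other libraries stayed between -0.13 and 0.16. In tissue RNA of this kind, fewer cells of a type and less RNA per cell cannot be told apart.

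None of the 10 genes passed the test between knockout and control brown fat. Gnas was the one with the highest fold change and Ramp1 the one with the lowest, at 121% and 31.4% of the control mean in knockouts. Over all genes, 9 of 14767 tested were called at a Benjamini-Hochberg adjusted p under 0.05 by the quasi-likelihood test of edgeR (0.0609%; 0.0271% higher and 0.0339% lower in knockouts). Among the 10 genes 0 were called by edgeR, 0 by DESeq2 (1.73% of all genes tested by it) and 0 by limma-voom (0.223%). An unadjusted edgeR p under 0.05 was found for 1 higher gene (Gnas) and 1 lower gene (Rapgef4), against 2.87% higher and 7.6% lower over all genes tested, or 10.5% in all. The smallest adjusted p among them was 0.471. All 10 passed the filter on low counts. The groups did not overlap for 3 of the 10 genes, all with every knockout library below every control; over all genes tested this was so for 10.8% in that direction and 7.63% in the other. The median log2 fold change was -0.20 over the 10 genes and 0.011 over all genes tested.

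**Figure D1:**
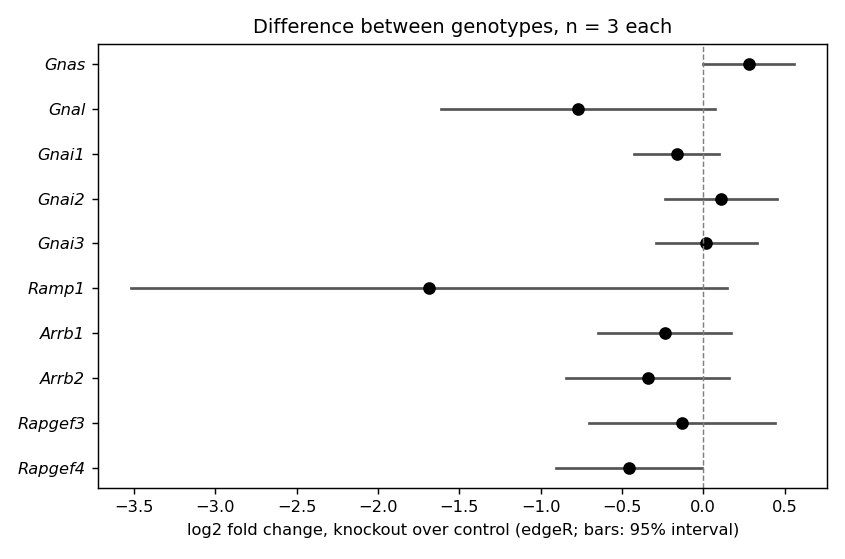
Log2 fold change of each gene, knockout over control, from edgeR (points) with its 95% interval (bars), n = 3 libraries per genotype; genes run from alpha subunits at the top to exchange factors at the bottom. The interval of Ramp1 spans -3.52 to 0.14, whereas that of Gnai1 spans -0.42 to 0.098; the intervals of Gnas (0.0013 to 0.56) and Rapgef4 (-0.90 to -0.0083) end next to 0.

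These promoters are printed because they belong to the most abundant gene of the set, to 2 genes whose groups did not overlap (Ramp1 and Rapgef4) and to Rapgef3, the paralogue of Rapgef4. Each runs 5′ to 3′ from 250 bases before to 50 bases after a transcript start, from RefSeq on GRCm38.p6. Capitals mark TGACG, the short form of the cyclic AMP response element TGACGTCA, read on either strand (CGTCA is the same site on the other strand). Gnas is shown at the start that lies farthest downstream of its 4 entries, chr2:174329756-174330055, plus strand; Ramp1 is chr1:91179572-91179871, plus strand; Rapgef4 is chr2:71980965-71981264, plus strand; Rapgef3 is chr15:97767617-97767916, minus strand.
Gnas: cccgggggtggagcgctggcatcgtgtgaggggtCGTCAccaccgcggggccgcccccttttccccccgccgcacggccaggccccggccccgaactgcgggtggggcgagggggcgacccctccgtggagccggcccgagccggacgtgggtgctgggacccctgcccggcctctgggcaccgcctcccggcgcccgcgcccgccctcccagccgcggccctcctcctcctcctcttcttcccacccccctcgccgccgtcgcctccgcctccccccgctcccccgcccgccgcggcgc
Ramp1: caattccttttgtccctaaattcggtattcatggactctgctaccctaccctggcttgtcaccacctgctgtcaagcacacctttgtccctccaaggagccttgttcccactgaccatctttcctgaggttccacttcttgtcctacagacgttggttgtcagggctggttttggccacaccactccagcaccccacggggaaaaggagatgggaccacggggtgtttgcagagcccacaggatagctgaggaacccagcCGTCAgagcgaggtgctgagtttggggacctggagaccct
Rapgef4: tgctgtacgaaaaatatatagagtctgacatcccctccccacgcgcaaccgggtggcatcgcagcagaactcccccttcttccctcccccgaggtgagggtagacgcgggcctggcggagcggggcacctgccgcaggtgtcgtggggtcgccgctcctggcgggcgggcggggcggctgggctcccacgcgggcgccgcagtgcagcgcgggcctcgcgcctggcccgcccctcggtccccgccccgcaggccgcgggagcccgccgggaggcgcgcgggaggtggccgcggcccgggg
Rapgef3: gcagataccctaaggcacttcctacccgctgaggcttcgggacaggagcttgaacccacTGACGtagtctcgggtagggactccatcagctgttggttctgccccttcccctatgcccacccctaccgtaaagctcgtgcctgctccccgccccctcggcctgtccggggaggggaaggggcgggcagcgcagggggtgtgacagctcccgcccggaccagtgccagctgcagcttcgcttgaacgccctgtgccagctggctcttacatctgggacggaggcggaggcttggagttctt

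RefSeq promoters were matched for 6 of the 10 genes (Gnas, Gnai1, Gnai3, Ramp1, Rapgef3 and Rapgef4), in 9 entries, 4 of them for Gnas. The short site begins at position -216 relative to the Gnas start shown, at 11 in Ramp1 and at -191 in Rapgef3, and was not found in the Rapgef4 window. It was also found at 40 in Gnai3 and at -38 and -57 from 2 neighbouring Gnas starts, which is one and the same site, and not in Gnai1. The full element was found in none of the 9 entries. Among all 32851 promoters of that length 20.8% hold the short site and 1.79% the full element. The windows differ in base composition. That of Rapgef4 has 76.7% G and C and 40 CpG pairs, more pairs than 96.1% of promoters, and the Gnas window shown also has 40. Ramp1's has 55.7% G and C and 6 CpG pairs, more than 43.6% of promoters. Gnai1 has 53 CpG pairs, more than 99.5% of promoters.

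Levels of different genes are compared per kilobase of annotated exon (CPM per kb). Gnas was far above the rest, with a mean of 250 CPM per kb over the 6 libraries (range 206 to 295). The inhibitory subunits followed in the order Gnai2 (25.3), Gnai1 (15.4) and Gnai3 (11.3 CPM per kb), without overlap between neighbours, and each neighbour pair kept this order in all 6 libraries. Rapgef3 came next at 3.66 CPM per kb (range 2.57 to 4.90), again below Gnai3 in every library. Arrb2 (2.13) and Arrb1 (2.03 CPM per kb) did not differ beyond their spread, each being the higher in 3 of 6 libraries. Ramp1 (1.20, range 0.0983 to 2.18 CPM per kb) overlapped both Arrb1 above it and Rapgef4 below it (0.669, range 0.547 to 0.824). Gnal was last at 0.118 CPM per kb (range 0.0691 to 0.180), without overlap with Rapgef4. The ranks were the same with the longest annotated transcript as the length.

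**Figure D2:**
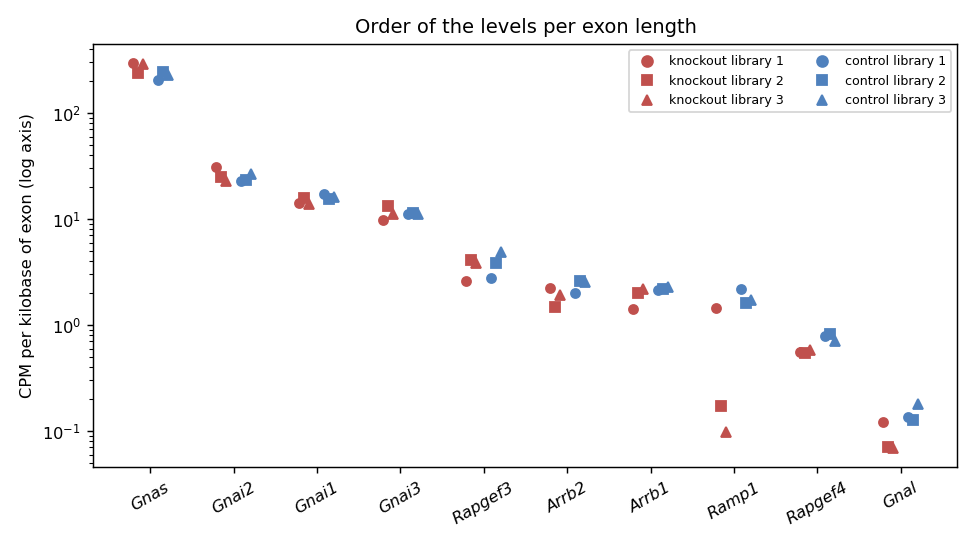
CPM per kilobase of exon on a log axis for the 10 genes, ordered by their mean over all libraries; red points are the 3 knockout libraries, drawn left of the 3 control libraries in blue, and the marker shape gives the library number. Gnas lies between 206 and 295 in all libraries, the 3 Gnai genes between 9.86 and 30.9, and Ramp1 is the gene whose knockout libraries are spread most, between 0.0983 and 1.46.

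Gnas (ENSMUSG00000027523, chr2:174284320-174346744, plus strand, GRCm38) encodes the stimulatory alpha subunit that couples beta-adrenergic receptors to adenylyl cyclase. It measured 3297, 2685 and 3226 CPM in the knockouts, against 2304, 2696 and 2580 CPM in the controls. Knockout libraries 1 and 3 lay above all controls, and knockout library 2 lay just under the highest control. The means were 3069 ± 335 CPM in knockouts and 2527 ± 201 CPM in controls (SD, n = 3 each). The log2 fold change was 0.28 ± 0.12 (SE), with a 95% interval of 0.0013 to 0.56 and an edgeR adjusted p of 0.477. In fold terms the interval runs from 1.00 to 1.47. With the muscle markers' mean level or share as a covariate the log2 fold change of Gnas was 0.30 or 0.39, without a call. The 10 brown adipocyte markers all had a positive log2 fold change as well (median 0.28), without a call. Their summed share of counts was higher in every knockout than in every control, but singly this held for only 3 of the 10 markers. Ucp1 was one of them, at 7161, 7111 and 7592 CPM in the knockouts and 5398, 6008 and 5850 CPM in the controls. Adipoq overlapped, at 347, 305 and 295 CPM in the knockouts and 294, 287 and 317 CPM in the controls. The part of brown adipocyte content in the Gnas difference was not tested.

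The Gnas locus is imprinted and has several promoters, and the deposited table has 1 row for a gene with 24 annotated transcripts, so the stimulatory subunit cannot be separated from the other products here. Its antisense gene Nespas shares exon sequence and averaged 0 CPM in knockouts and 0.0414 CPM in controls. The overlapping gene Gm20721, on the other strand, averaged 13.6 CPM in knockouts and 12.4 CPM in controls, or 0.466% of the Gnas level over all libraries. No source used here says whether counting used strand, and without it reads of overlapping exons cannot be assigned to one gene.

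Gnal (ENSMUSG00000024524, chr18:67088216-67226792, plus strand) encodes the other stimulatory alpha subunit, named for the olfactory epithelium, where it couples odorant receptors to adenylyl cyclase 3. It was the least abundant of the set, at 1.35, 0.782 and 0.772 CPM in the knockouts and 1.53, 1.43 and 2.01 CPM in the controls. All knockout libraries lay below all controls, but knockout library 1 was much closer to the lowest control than to the other knockouts. These levels rest on 45 estimated counts over the knockouts and 81 over the controls. The log2 fold change was -0.77 ± 0.37 (SE; 95% interval -1.62 to 0.072; edgeR adjusted p = 0.517). Per kilobase, Gnas exceeded Gnal by 3344 ± 874 times in knockouts and 1555 ± 302 times in controls (SD, n = 3 each).

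Exons of Gnal overlap those of Mppe1 on the opposite strand, and an 843-base stretch of a Gnal transcript is identical to Mppe1 sequence. Mppe1 averaged 13.7 CPM in knockouts and 13.5 CPM in controls, while Gnal itself averaged 0.969 CPM in knockouts and 1.66 CPM in controls, so the small Gnal count is uncertain. The 8 fibroblast and progenitor markers together made up 0.0308%, 0.0209% and 0.0188% of counts in the knockouts, against 0.0517%, 0.0332% and 0.0505% in the controls. This summed share was lower in every knockout than in every control, as were 4 of the 8 markers singly. All 8 had a negative log2 fold change (median -0.71) without a call, and none of them was at 0 in a knockout library. The 8 macrophage markers all had a negative log2 fold change as well (0.00488 to 0.0104% of counts in knockouts, 0.00661 to 0.0137% in controls). The part of these cells in the Gnal difference was not tested. With the mean log2 level of the muscle markers as a covariate the log2 fold change of Gnal was -0.30, and with their share of counts it was -0.034, without a call.

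None of the inhibitory subunits Gnai1, Gnai2 and Gnai3 passed the test, and their groups overlapped. They share the function of restraining adenylyl cyclase and also release beta-gamma dimers that act on channels and other enzymes. Gnai2 (ENSMUSG00000032562, chr9:107614125-107635367, minus strand), the most abundant of them, measured 117, 94.3 and 86.1 CPM in the knockouts, against 86.6, 87.6 and 101 CPM in the controls. The groups overlapped over most of their range, with the highest value in knockout library 1. Its log2 fold change was 0.11 ± 0.15 (SE; 95% interval -0.23 to 0.45; edgeR adjusted p = 0.855), and -0.025 without knockout library 1. It was 0.37 with the mean level of the muscle markers as a covariate and 0.48 with their share of counts, without a call. Knockout library 1 had more counts from short transcripts, and the longest Gnai2 transcript has 2215 bases; the part of transcript length in this value was not tested.

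Gnai1 (ENSMUSG00000057614, chr5:18265135-18360355, minus strand) measured 44.2, 49.0 and 43.3 CPM in the knockouts and 53.9, 48.5 and 50.3 CPM in the controls. Knockout library 2 lay within the control range and the other knockouts below it. Its log2 fold change was -0.16 ± 0.11 (SE; 95% interval -0.42 to 0.098; edgeR adjusted p = 0.660), the narrowest interval of the 10 genes.

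Gnai3 (ENSMUSG00000000001, chr3:108107280-108146146, minus strand) measured 32.2, 43.2 and 36.2 CPM in the knockouts, against 36.5, 36.8 and 36.7 CPM in the controls. The controls were almost identical, with a coefficient of variation of 0.450%, while the knockouts lay on both sides of them with one of 15.1%. The log2 fold change was 0.019 ± 0.13 (SE; 95% interval -0.29 to 0.33; edgeR adjusted p = 0.977), and its sign turned without knockout library 2 (-0.10) and without control library 3 (-0.0080). It also turned with the muscle markers' mean level (-0.10) or share (-0.41) as a covariate.

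Within the inhibitory family Gnai2 made up 50.2% ± 5.41 of the 3 genes' summed CPM per kb in knockouts and 46.9% ± 2.49 in controls. Gnai1 made up 27.9% ± 1.91 in knockouts and 31.4% ± 1.97 in controls, and Gnai3 21.9% ± 3.52 in knockouts and 21.7% ± 0.914 in controls (SD, n = 3 each). Gnas was 5.37, 4.46 and 6.05 times the summed Gnai level per kilobase in the knockouts, against 4.02, 4.82 and 4.26 times in the controls. Knockout library 2 lay within the control range and the other knockouts above it. With the longest transcript as the length, the mean ratio was 11.1 in knockouts and 9.30 in controls.

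**Figure D3:**
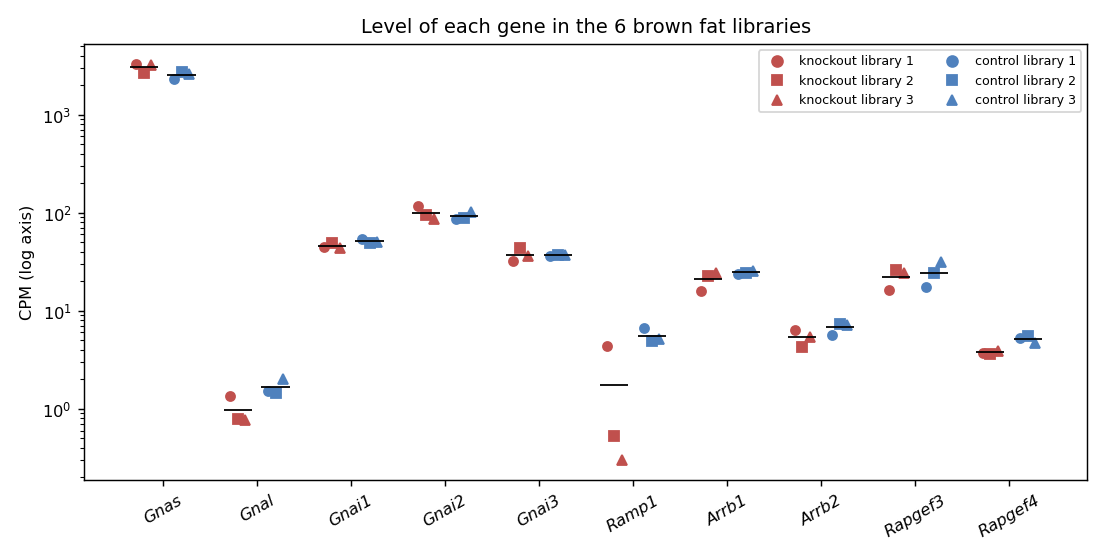
CPM of each gene in every library on a log axis, with knockout libraries (red) left of control libraries (blue), library number by marker shape and the group mean as a black line. Genes are grouped by role, from stimulatory and inhibitory alpha subunits through Ramp1 and the arrestins to the exchange factors; the knockout points of Ramp1 run from 0.297 to 4.40 CPM, whereas those of Rapgef4 lie together between 3.65 and 3.92 CPM.

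Ramp1 (ENSMUSG00000034353, chr1:91179822-91225196, plus strand) encodes a single-pass membrane protein that pairs with the calcitonin receptor-like receptor to form the receptor for calcitonin gene-related peptide, which couples to the stimulatory G protein. It measured 4.40, 0.522 and 0.297 CPM in the knockouts, against 6.60, 4.87 and 5.16 CPM in the controls. In estimated counts these are 65, 8 and 5 in knockouts and 112, 85.2 and 77.0 in controls, so that the gene passed the filter, with its minimum count of 10, through the other libraries than knockout libraries 2 and 3. Knockout libraries 2 and 3 were close to the floor of 3 counts, while knockout library 1 was just under the lowest control and at 10.8 times the mean of the other knockouts. Its log2 fold change of -1.69 ± 0.79 (SE, 95% interval -3.52 to 0.14) was the largest of the 10 genes in size and had the largest standard error (edgeR adjusted p = 0.515).

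In both Ramp1 and the share of the skeletal muscle markers, control library 1 was highest, knockout library 1 was below all controls, and knockout libraries 2 and 3 were lowest in that order. Control libraries 2 and 3 ran in opposite order, with 4.87 and 5.16 CPM of Ramp1 but 1.99% and 1.67% of counts from muscle markers. Every knockout was below every control in the summed share of the muscle markers, and in 17 of the 20 markers singly. Genotype and muscle content therefore cannot be told apart here. Without knockout library 1 the log2 fold change was -3.75 and Ramp1 was called (edgeR adjusted p = 0.000186), in a fit that called 857 of 15188 genes (5.64%, and 5.35% lower). Both knockout libraries left in that fit were under the minimum count of 10, so the gene passed its filter through the controls alone, where it was high. Without any other single library the log2 fold change lay between -1.82 and -1.17, with no call. With the mean log2 level of the muscle markers as a covariate its log2 fold change was 0.043 (edgeR adjusted p = 0.968), and with their share of counts it was 2.22 (edgeR adjusted p = 0.363). Knockout library 1 stood far from the other knockouts in that share (0.919%, against 0.0675% and 0.00611%), for every gene fitted with it. How far such estimates rest on that library was not tested. Without a filter on low counts Ramp1 was also called (-1.68, edgeR adjusted p = 3.57e-05), as were 2.8% of the 31870 genes then tested (2.45% lower). The genes whose log2 CPM pattern over the 6 libraries was nearest to that of Ramp1, out of 9436 compared, were Tpm1, Hspb6 and Rtn2. Their root mean square differences from it were 0.11, 0.12 and 0.13 on the log2 scale, against a spread of 1.63 for Ramp1 about its own mean. Tpm1, a tropomyosin, measured 359, 57.1 and 36.1 CPM in the knockouts, against 612, 481 and 420 CPM in the controls.

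**Figure D4:**
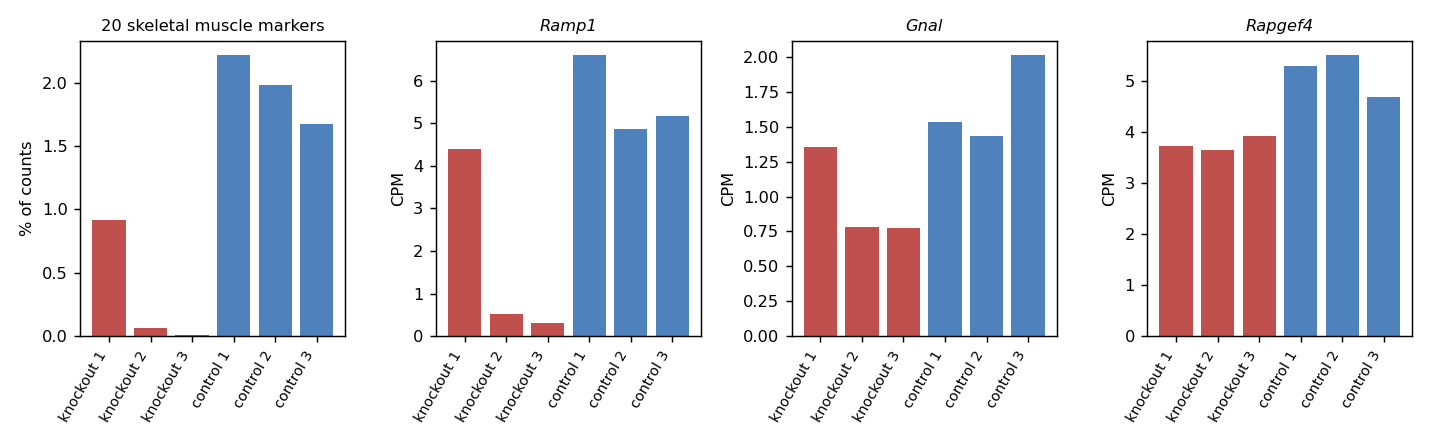
Share of counts from 20 skeletal muscle markers (left, % of counts) beside the CPM of Ramp1, Gnal and Rapgef4, the 3 genes whose groups did not overlap; each bar is 1 library, red for knockouts and blue for controls. Ramp1 and the muscle markers are both far lower in knockout libraries 2 and 3 than in library 1, while Rapgef4 is nearly level across the knockouts (3.65 to 3.92 CPM).

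None of the genes that work with Ramp1 was called. Calcrl, the receptor it pairs with, had a log2 fold change of -0.13, and Ramp2, which turns that receptor into one for adrenomedullin, of -0.070. Ramp3, which also pairs with it, measured 4.06, 3.26 and 3.27 CPM in the knockouts, against 2.12, 2.52 and 1.47 CPM in the controls. All its knockout libraries lay above all controls, without a call (log2 fold change 0.78 ± 0.28, SE; edgeR adjusted p = 0.387). Adm, which encodes adrenomedullin, had overlapping groups (-0.91 ± 0.56, SE), and Crcp, a protein linked to signalling by this receptor, did too (0.14 ± 0.16, SE). Of the 10 genes in this list of partners and ligands 5 were tested and 0 were called, with a median of -0.070.

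Arrb1 (ENSMUSG00000018909, chr7:99535466-99606771, plus strand) encodes beta-arrestin 1. It measured 15.7, 22.6 and 24.3 CPM in the knockouts, against 23.7, 24.5 and 25.6 CPM in the controls. Knockout library 1 was the lowest of all, knockout library 2 lay just under the narrow control range and knockout library 3 within it. The log2 fold change was -0.24 ± 0.18 (SE; 95% interval -0.65 to 0.17; edgeR adjusted p = 0.692), and -0.069 without knockout library 1, the library with fewer counts from long transcripts. It was -0.66 with the mean level of the muscle markers as a covariate and -1.16 with their share of counts, without a call. The longest Arrb1 transcript has 7135 bases, and the part of transcript length in this value was not tested.

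Arrb2 (ENSMUSG00000060216, chr11:70432635-70440828, plus strand) encodes beta-arrestin 2, the close relative with the same task. It measured 6.36, 4.24 and 5.40 CPM in the knockouts, against 5.71, 7.39 and 7.17 CPM in the controls. Only knockout library 1 reached into the control range. Its log2 fold change was -0.34 ± 0.22 (SE; 95% interval -0.84 to 0.16; edgeR adjusted p = 0.627). Without knockout library 2 it was -0.20, without knockout library 1 -0.48 and without control library 1 -0.47. With the muscle markers' mean level or share as a covariate it was -0.19 or -0.0029, and none of these fits gave a call. The longest Arrb2 transcript has 1848 bases, and the part of transcript length in the value of knockout library 1 was not tested. In CPM Arrb1 was the more abundant arrestin, but per kilobase it made up 49.8% ± 9.96 of the pair in knockouts and 48.2% ± 2.83 in controls (SD, n = 3 each). The Arrb1 share in the knockouts was 38.6%, 57.5% and 53.4%. Knockout library 1, with the lowest share, had more counts from short transcripts and fewer from long ones. The part of transcript length in this share was not tested.

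Of 14 receptor kinases and other arrestins 10 were tested, 0 were called, and the median log2 fold change was -0.021. Arrdc2, an alpha-arrestin, which is a scaffold for ubiquitin ligases, had the smallest p in this list. It measured 7.78, 3.59 and 3.39 CPM in the knockouts, against 6.60, 12.7 and 7.78 CPM in the controls, with overlap through knockout library 1 (-0.88 ± 0.38, SE; edgeR adjusted p = 0.477). Without knockout library 1 it was called, at -1.37 (edgeR adjusted p = 0.0263). That fit called 857 of 15188 genes (5.64%, and 5.35% lower). Arrdc3 (-0.27 ± 0.15) and Arrdc4 (-0.20 ± 0.17, SE), of the same family, had overlapping groups. Grk2, the kinase that marks active beta-adrenergic receptors for arrestin, had a log2 fold change of 0.086.

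Rapgef3 (ENSMUSG00000022469, chr15:97744770-97767972, minus strand) encodes Epac1. It measured 16.3, 25.9 and 24.2 CPM in the knockouts, against 17.5, 24.1 and 31.0 CPM in the controls. The libraries of each genotype were spread widely and overlapped, with a coefficient of variation of 23.1% in knockouts and 27.8% in controls. Its log2 fold change was -0.13 ± 0.25 (SE; 95% interval -0.70 to 0.44; edgeR adjusted p = 0.901). Its sign turned without knockout library 1 (0.050) and without control library 3 (0.063), and without control library 1 it was -0.32. With the mean level of the muscle markers as a covariate it was -0.54, and with their share of counts -1.55 (edgeR adjusted p = 0.323). The antisense genes Rapgef3os1 and Rapgef3os2, which share exon sequence with it, averaged 0.762% and 0.610% of its level over all libraries.

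Rapgef4 (ENSMUSG00000049044, chr2:71981240-72257474, plus strand) encodes Epac2, best known from pancreatic beta cells and brain. It measured 3.72, 3.65 and 3.92 CPM in the knockouts, against 5.30, 5.50 and 4.69 CPM in the controls. All knockout libraries lay below all controls, and they were the most uniform knockout values of the 10 genes, with a coefficient of variation of 3.70%. Its log2 fold change of -0.46 ± 0.19 (SE; 95% interval -0.90 to -0.0083) had the smallest p of the 10, but did not pass over all genes (edgeR adjusted p = 0.471). The counts behind it were 177 over the knockouts and 256 over the controls.

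The log2 fold change of Rapgef4 lay between -0.55 and -0.43 whichever library was left out. It was -0.49 with the mean level of the muscle markers as a covariate and -0.37 with their share of counts. None of these fits called it. The summed shares of muscle and of fibroblast markers were also lower in every knockout than in every control, and their part in the Rapgef4 difference was not tested. Its nearest genes in pattern were Hif1an, Rrp12 and Ccdc6, with root mean square differences of 0.061, 0.066 and 0.074 on the log2 scale, against a spread of 0.23 for Rapgef4 about its own mean. For Gnal, with a spread of 0.47, the nearest were Islr (0.083), Gsn (0.093) and Tmem63a (0.12). Per kilobase, Rapgef3 made up 85.7% ± 3.12 of the 2 Epac genes in knockouts and 82.5% ± 4.87 in controls (SD, n = 3 each).

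Downstream of Epac, all 21 listed Rap GTPases and regulators were tested and 0 were called, with a median log2 fold change of -0.022. Rap1gap, which switches Rap off by speeding its GTP hydrolysis, had the smallest p in the list. It measured 68.7, 58.6 and 65.9 CPM in the knockouts, against 41.6, 49.6 and 51.3 CPM in the controls. All knockout libraries lay above all controls (log2 fold change 0.44 ± 0.13, SE; edgeR adjusted p = 0.293). Rapgef1, a Rap exchange factor that is not gated by cyclic AMP, had all knockouts below all controls (-0.21 ± 0.12, SE; edgeR adjusted p = 0.575). Sipa1l3 (-0.38 ± 0.19, SE) had overlapping groups. In this list 2 of 21 genes had all knockouts above all controls and 1 had all below, against 7.63% and 10.8% of all genes tested.

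The remaining parts of the G protein cycle gave no call either. Of 11 other alpha subunits 5 were tested, all 5 with a small positive log2 fold change (0.085 to 0.18, median 0.14) and overlapping groups. They include Gnaq, which activates phospholipase C (0.14 ± 0.11, SE), and Gna12 (0.15 ± 0.14) and Gna13 (0.18 ± 0.15). Of 17 beta and gamma subunits 11 were tested, with a median of 0.13. Gngt2, a gamma subunit known from cone photoreceptors, measured 17.5, 10.1 and 12.2 CPM in the knockouts, against 6.89, 8.88 and 10.7 CPM in the controls (0.59 ± 0.25, SE; edgeR adjusted p = 0.465), with overlap through knockout library 2. Gng2, another gamma subunit, had all knockouts below all controls, at 2.57, 2.54 and 2.55 CPM in the knockouts and 4.65, 2.98 and 3.75 CPM in the controls (-0.57 ± 0.25, SE; edgeR adjusted p = 0.485). Gnb2, a beta subunit, had overlapping groups (0.23 ± 0.18, SE).

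RGS proteins speed GTP hydrolysis by alpha subunits, and with the alpha subunit chaperones 16 of 26 were tested. Their median log2 fold change was -0.045, and in 0 of the 16 did the groups separate. Rgs16 (0.72 ± 0.43, SE), near 1 CPM, and Rgs19 (-0.33 ± 0.21) had the smallest p. Rgs5, which is also on the list of pericyte markers, was the next and measured 324 ± 68.3 CPM in knockouts and 277 ± 7.31 CPM in controls (SD, n = 3 each). Over the 6 lists together 68 of 99 genes were tested and 0 were called by edgeR, DESeq2 or limma-voom, while 3 higher and 1 lower had an unadjusted edgeR p under 0.05. The groups did not overlap for 6 of the 68 genes, against 18.4% of all genes tested.

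**Figure D5:**
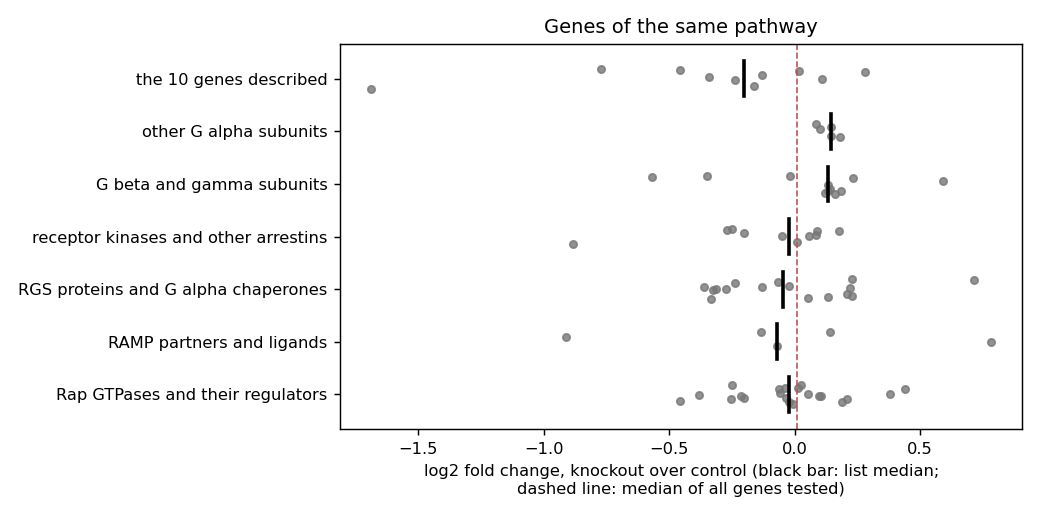
Log2 fold change, knockout over control, of each tested gene (grey points, spread vertically only for visibility) in the set of 10 genes and the 6 lists of related genes; black bars are list medians and the dashed line is the median of all genes tested (0.011). List medians lie between -0.20 for the 10 genes and 0.14 for the other alpha subunits, and Ramp1 (-1.69) is the point farthest from 0.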

How the data were processed

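The authors deposited estimated counts per gene (54385 rows, 6 columns), not normalized, per the values in the file. StringTie, Salmon, edgeR and the build GRCm38 are named in the submitters' processing notes; no source used here gives versions, settings, annotation or use of strand. Columns were matched to samples by the names in the sample descriptions. Symbols, positions and exon lengths came from GENCODE vM21 (GRCm38), which held 54131 of the identifiers and lacked 254.

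Counts were rounded and filtered with filterByExpr (minimum count 10, minimum total 15). They were tested with edgeR 4.0.16 (glmQLFit and glmQLFTest, TMM, genotype only, two-sided) in R 4.3.3, adjusted over all genes tested. CPM uses TMM-scaled totals, and floors cover counting error only. Standard errors were taken as the fold change (log2) over the square root of F, and 95% intervals from t quantiles. The main fit was tested on simulated counts, in which the changed genes averaged at least 5 CPM. It called 1 of 69 genes changed 1.5-fold, 23 of 66 changed 2-fold and 56 of 65 changed 3-fold. Gnal, Ramp1 and Rapgef4 averaged 1.31, 3.64 and 4.46 CPM, below that level, so these rates were not measured for such genes. Of the genes left unchanged, 17 were called. The lack of a call therefore does not show that a gene was unchanged. No 2 libraries within a genotype were copies (chi-square over degrees of freedom of at least 12.0). Matches to other genes' transcripts were searched with blastn 2.17.0 (at least 95% identity over 200 bases). Pattern likeness used log2(CPM + 0.1), among genes of at least 5 CPM, leaving out Gm and Rik models and identifiers without a symbol, and is given for the 3 genes with the largest fold changes. From each list, up to 3 genes with the smallest p were named; Calcrl, Ramp2 and Grk2 were added with their values known.

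The genes and lists were chosen with earlier results of these data known. Alternatives tried were DESeq2 1.42.0, limma-voom (limma 3.58.1), RLE or upper-quartile factors, 2 other filters, a replicate block, each library left out, 2 muscle covariates, another gene length and plain library size.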

Additional observations from a re-analysis of the deposited data

How the results depend on the processing

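None of the 10 genes was called in 13 of 15 alternatives of the test. Of 150 fold changes under these alternatives 139 kept their direction and stayed without a call, 9 changed direction and 2, both of Ramp1, gained a call. Counts of called genes were higher 32 and lower 262 with DESeq2, 6 and 27 with limma-voom, 111 and 782 without the low-count filter, 11 and 8 with the mean level of the muscle markers in the fit, and 0 and 0 with their share of counts. Leaving out 1 library gave 3 to 45 higher and 1 to 812 lower, the highest without knockout library 1, against 4 and 5 with all 6 libraries; each other omission gave 3 higher and 1 or 2 lower. Same-numbered libraries correlated at 0.074, 0.11 and 0.053 in their deviations from group means. Pairs of unlike number lay between -0.063 and -0.0093, so each library correlated best with its own number. Deviations from a group mean cancel out within the group, so the negative values follow in part from the positive ones and are not separate evidence. These correlations are weak, and whether libraries of one number share a batch or litter was not tested. With the library number as a replicate block 2 genes were higher and 2 lower, none of the 10 was called, and Ramp1 was at -2.32. Without the low-count filter, 1 of the 10 genes (Ramp1) and 1 gene of the pathway lists (Arrdc2) were called, as were 2.8% of all genes then tested. Leaving out 1 library gave 0 to 1 in each case, with the calls in the fit without knockout library 1, which called 5.64% of all genes. Direction turned for Ramp1 with the muscle level (0.043) and share (2.22), for Gnai3 with them (-0.10 and -0.41), without knockout library 2 (-0.10) and without control library 3 (-0.0080). It also turned for Gnai2 without knockout library 1 (-0.025), and for Rapgef3 without knockout library 1 (0.050) and control library 3 (0.063). Leave-one-out values ran from -0.10 to 0.11 for Gnai3, -0.025 to 0.20 for Gnai2 and -0.32 to 0.063 for Rapgef3. The cause was not tested. Scaling alternatives for groups that do not overlap were chosen after seeing the data. RLE and upper-quartile factors each put 1 gene of the 10 with all knockouts above, against 1255 and 1215 of the 14767 genes tested. Plain library sizes put 5 of the 10 with all below, against 2286 of the genes tested (482 above). With the longest transcript as the length, Gnas over the summed Gnai genes was 11.1 in knockouts and 9.30 in controls, and over Gnal 4866 and 2262. Shares of the Gnai genes were then 63.1% and 60.1% for Gnai2, 20.6% and 23.6% for Gnai1, and 16.3% and 16.3% for Gnai3 (knockouts, then controls). Gnal and the Ramp1 values of knockout libraries 2 and 3 rest on few counts.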
